A study of Mus musculus with 5 samples.

Results

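A group of 10 inducible small GTPase genes was followed in the mouse hippocampus at 3 times after kainic acid seizures: the RGK genes Gem, Rem1, Rem2 and Rrad, the pair Rasd1 and Rasd2, Rheb, the RhoA relative Rnd3, and the pair Rasl11a and Rasl11b. They were taken by symbol, with no measured value in the rule, and made up 10 of the 55385 genes in the count tables. The list itself was drawn up with earlier results of these data known. All animals were male C57/bl6 mice 3 months old, with no genotype given beyond the strain. The control group was untreated. The other groups received 20 mg/kg kainic acid intraperitoneally and were killed at 1, 4 or 8 h, timed from the onset of their seizures. Kainic acid activates a class of glutamate receptors and drives hippocampal circuits into seizures. There was 1 library of total RNA for the control, 1 for 1 h, 2 for 4 h (library 1 and library 2) and 1 for 8 h. The sources do not state whether each library came from a separate animal, so p-values measure the spread between these libraries only.

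Small GTPases are molecular switches that bind GTP or GDP. RGK proteins differ from most of the family in that they bind the beta subunits of voltage-gated calcium channels and reduce calcium entry, and several of them also restrain signalling by ROCK kinases. Rheb in its GTP form activates the mTORC1 kinase complex, which controls protein synthesis, while Rnd3 stays bound to GTP and opposes RhoA and the ROCK kinases at the actin cytoskeleton. In neurons, transcripts of several of these genes are known to follow synaptic activity.

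The counts of reads on genes were 19100374 in the control, 17744508 at 1 h, 18250114 and 19109204 in 4 h libraries 1 and 2, and 16612225 at 8 h. Levels are given as normalized CPM, the count of a gene scaled to the library total and its TMM factor, and levels of different genes are compared only per kb of merged exon length. Intervals are exact 95% intervals and cover counting error only. Markers of hippocampal neurons were present in every library, with a summed level of 827, 832, 1020, 819 and 1104 normalized CPM over 8 genes in the control, at 1 h, in 4 h libraries 1 and 2 and at 8 h, of which Zbtb20 made up 331, 372, 613, 379 and 502. At 4 h 2 of the 8 were at least 2-fold lower than the control in both libraries, against 1.51% of all genes tested. Dsp stood at 72.2 normalized CPM in the control, 4.34 and 13.6 in 4 h libraries 1 and 2, and 68.5 at 8 h (edgeR adjusted p at 4 h 0.259), and C1ql2 at 29.3, 11.0, 11.7 and 58.1 (edgeR adjusted p at 4 h 0.245). Both are markers of dentate granule cells, but another such marker, Prox1, lay on the other side of the control, at 2.86 and 1.995 times its level in 4 h libraries 1 and 2 (edgeR adjusted p at 4 h 0.276). The 4 h libraries stood apart from each other. The summed level of 6 choroid plexus markers was 4009 normalized CPM in the control, 1698 at 1 h, 30.1 in 4 h library 1, 4284 in 4 h library 2 and 3102 at 8 h, with Ttr the most abundant gene at 16.3 in 4 h library 1 and 3971 in 4 h library 2. None of these markers was at 0 counts in any library. Of 10 immediate early genes, 10 were at least 2-fold higher in 4 h library 1 than in library 2. Over all 19768 genes tested, 7.23% were at least 2-fold higher in library 1 and 4.84% in library 2. Whether these differences have a part in the levels of the GTPase genes was not tested, and every 4 h value is therefore given for each library. In bulk samples such as these, fewer cells of a type and less RNA per cell cannot be told apart.

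All 10 genes passed the filter on low counts, Rem1 through the control library alone. Differences were tested with the quasi-likelihood method of edgeR, with Benjamini-Hochberg adjustment over the 19768 genes, and the single libraries were assumed to vary like the pair at 4 h. None of the 10 passed an adjusted p of 0.05 at 1 h, where edgeR called 0% of all genes tested, at 4 h, where it called 0.00506%, or at 8 h, where it called 0%. The 1 gene called at 4 h was ETV3L, named because it was the only call. At an unadjusted p under 0.05 the genes tested numbered 478 at 1 h, 2291 at 4 h and 892 at 8 h, and the members numbered 5, 8 and 2. DESeq2 called 49 genes at 1 h, 233 at 4 h and 32 at 8 h, and limma-voom called 0 at each. Among the members, DESeq2 called Gem and Rheb at 1 h and Gem, Rem2, Rrad and Rheb at 4 h. The differences below therefore describe these libraries and did not pass the main test.

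By size, 4 of the 10 genes (Gem, Rrad, Rheb and Rasl11a) were at least 2-fold higher than the control at 1 h, against 5.41% of all genes tested. At 4 h, 7 of 10 (Gem, Rem2, Rrad, Rasd1, Rheb, Rnd3 and Rasl11a) were at least 2-fold higher in both libraries, against 4.96%, and 6 without Rasd1 when scaled by library size alone. At 8 h, 2 of 10 (Gem and Rem2) were at least 2-fold higher, against 6.79%. In the other direction, Rem1 was at least 2-fold lower at 1 h, against 3.85% of all genes tested, 0 members were at 4 h, against 1.51%, and Rem1 and Rasd1 were at 8 h, against 3.41%. The comparisons at the 3 times share the control library. Because the members were chosen with earlier results of these data known, their shares and medians are not independent of that choice. As Rem1 passed the filter through the control library alone, it had to be lower elsewhere, and its place in these counts carries no weight. Without Rem1, the median log2 fold change of the other 9 genes was 0.97, 1.76 and -0.11 for 1, 4 and 8 h, while that of all genes tested was -0.01, 0.01 and 0.01.

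**Figure D1:**
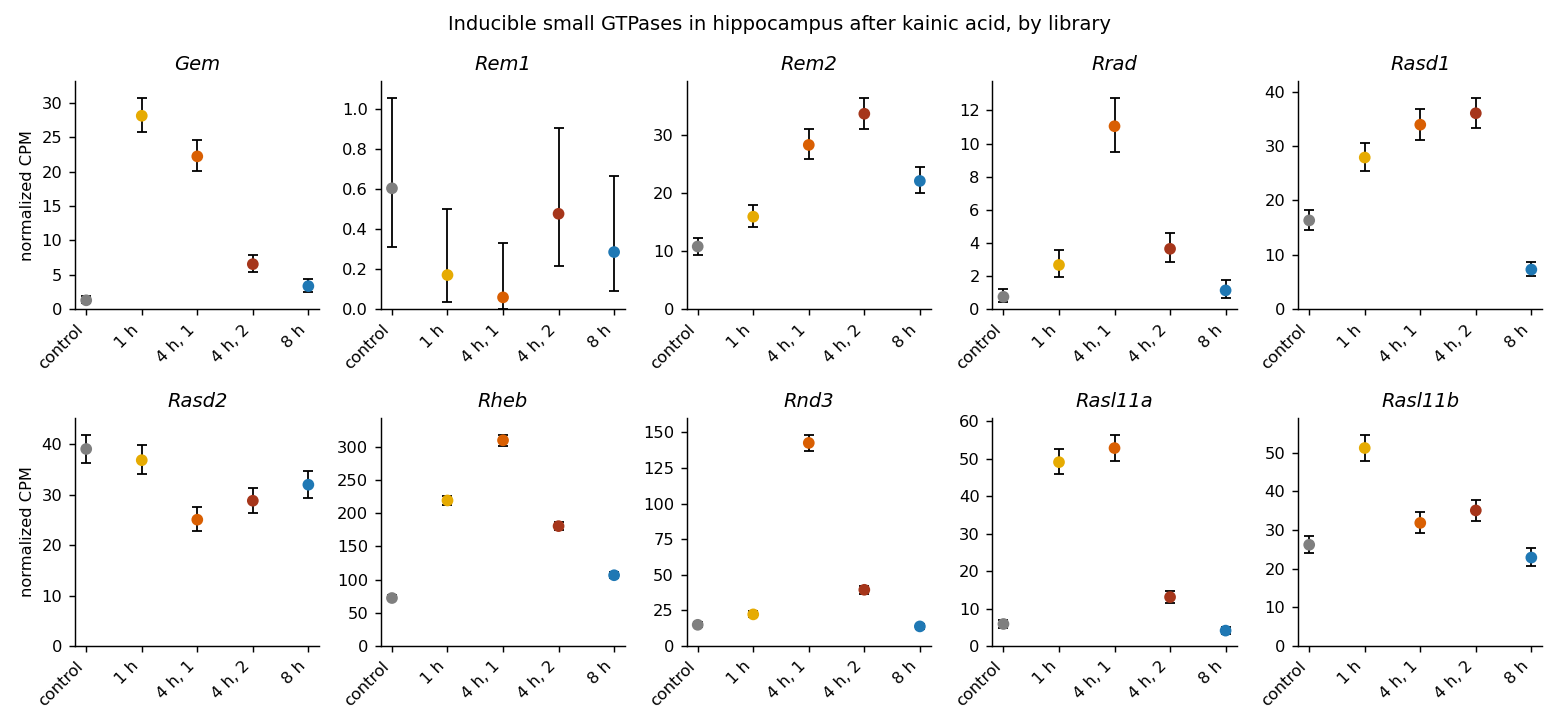
Normalized CPM (vertical axis, linear from 0) of each of the 10 genes in the 5 libraries (horizontal axis), with exact 95% Poisson intervals that cover counting error only. Gem, Rrad, Rnd3 and Rasl11a lie far apart between the 4 h libraries, whereas Rem2 and Rasd1 lie close together there.

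**Figure D2:**
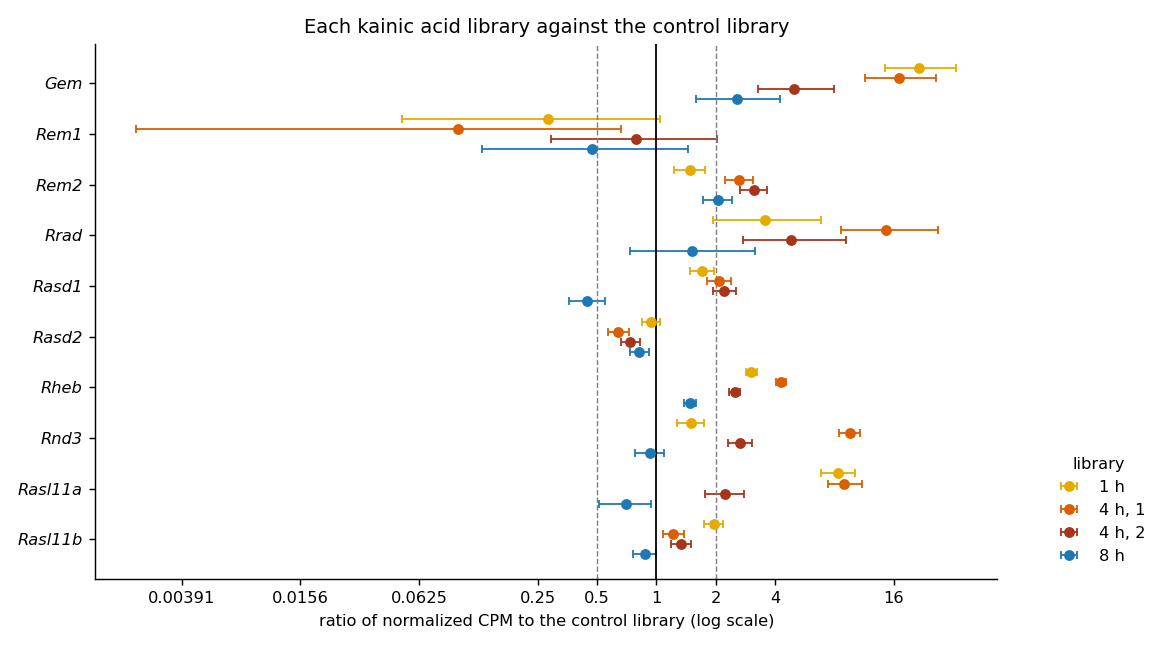
Ratio of normalized CPM in each kainic acid library to the control library (horizontal axis, log scale) for the 10 genes (vertical axis). Bars are exact binomial 95% counting intervals, the solid line marks equal levels and the dashed lines 2-fold. Gem lies to the right of equal levels in every library, and Rasd1 lies to the right at 1 and 4 h and to the left at 8 h.

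Among the RGK genes, Gem (ENSMUSG00000028214.13, chr4:11704457-11714752, plus strand of GRCm38) encodes a protein that binds calcium channel beta subunits and restrains ROCK kinases. Its level was 1.31 normalized CPM in the control (26 counts), 28.1 at 1 h, 22.2 and 6.56 in 4 h libraries 1 and 2, and 3.37 at 8 h. Each kainic acid library lay above the control, the 1 h library was the highest, and the 4 h libraries did not lie close together. Against the control, Gem was 21.5-fold higher at 1 h (counting interval 14.5 to 33.3), 17.0-fold and 5.02-fold in the 4 h libraries, and 2.58-fold at 8 h (1.60 to 4.26). The fitted log2 fold change was 4.32 for 1 h (SE 0.95, edgeR adjusted p = 1) and 3.35 for 4 h (SE 0.87, edgeR adjusted p = 0.323). Gem had the largest log2 fold change of the 10 genes at each of the 3 times. At 4 h it was 3.98 from library 1 alone and 2.24 from library 2 alone.

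Rem2 (ENSMUSG00000022176.11, chr14:54476100-54480431, plus strand), a calcium channel regulator with roles in synapse and dendrite growth, was highest later than Gem. It stood at 10.8 normalized CPM in the control (215 counts), 15.9 at 1 h, 28.3 and 33.6 in 4 h libraries 1 and 2, and 22.1 at 8 h. The 4 h libraries were the 2 highest and lay close together, and the 8 h library still lay above the 1 h library. Rem2 was 1.47-fold higher than the control at 1 h, 2.62-fold and 3.11-fold in the 4 h libraries, and 2.04-fold at 8 h (1.73 to 2.43). On the log2 scale the fitted fold change of Rem2 was 1.51 for 4 h (SE 0.26, edgeR adjusted p = 0.255) and 1.02 for 8 h (SE 0.29, edgeR adjusted p = 0.995).

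Rrad (ENSMUSG00000031880.7, chr8:104628070-104631327, minus strand), first known from diabetic skeletal muscle and also a channel regulator, was scarce in the control, at 0.754 normalized CPM (15 counts). It reached 2.67 at 1 h, 11.0 and 3.65 in 4 h libraries 1 and 2, and 1.14 at 8 h. Its highest value was in 4 h library 1, and the 8 h library lay within counting error of the control, with a ratio of 1.51 (0.737 to 3.18). The ratio was 3.55 at 1 h (1.95 to 6.83), 14.7 in 4 h library 1 (8.66 to 26.7) and 4.84 in 4 h library 2 (2.74 to 9.11). Fitted to both 4 h libraries, the log2 fold change was 3.11 (SE 0.87, edgeR adjusted p = 0.332). An antisense gene, Gm33023, overlaps 8.94% of the exon length of Rrad, and it had between 2 and 5 counts in each library. Whether the counting used strand is not given in the sources used here.

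Rem1 (ENSMUSG00000000359.3, chr2:152626951-152635198, plus strand), a calcium channel regulator best known from heart, was near the limit of detection. It had 12 counts in the control (0.603 normalized CPM), 3 at 1 h, 1 and 9 in 4 h libraries 1 and 2, and 5 at 8 h. The control was the highest and 4 h library 1 the lowest, and 4 h library 2 lay within counting error of the control. The ratio to the control was 0.283 at 1 h (0.0513 to 1.05), 0.0985 in 4 h library 1 (0.00230 to 0.666), 0.789 in 4 h library 2 (0.294 to 2.04) and 0.473 at 8 h (0.131 to 1.44). The value in 4 h library 1 rests on 1 count, below the floor of 3, and as Rem1 passed the filter through the control alone, no difference is read from these ratios. The choroid plexus markers were also lowest in 4 h library 1, and their part in the level of Rem1 was not tested.

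The makeup of the RGK group per kb of exon length differed from library to library. Rem2 made up 77.7% of the summed RGK level in the control, 31.9% at 1 h, 41.7% and 72.6% in 4 h libraries 1 and 2, and 80.0% at 8 h. Gem made up 10.1%, 60.1%, 35.0%, 15.1% and 13.0% of it in the same libraries. Gem was thus the leading RGK transcript in the 1 h library, and Rem2 in the other 4. The summed level was 6.18 normalized CPM per kb in the control, 22.2 in the 1 h library, 30.1 and 20.6 in 4 h libraries 1 and 2, and 12.3 in the 8 h library, with no library of kainic acid at or below the control.

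**Figure D3:**
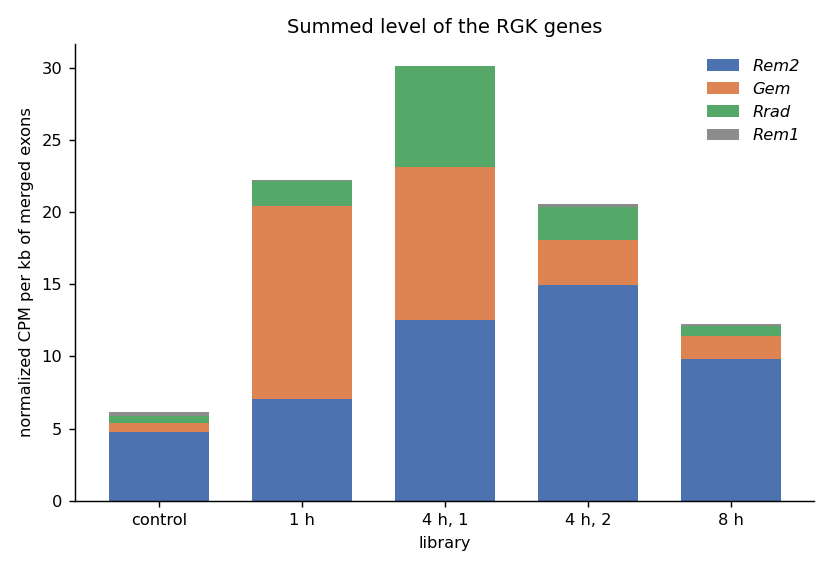
Summed level of the RGK genes in normalized CPM per kb of merged exon length (vertical axis, from 0) in each library (horizontal axis), with a colour for each gene. Gem fills most of the bar at 1 h (60.1%), and Rem2 most of it in the control (77.7%) and at 8 h (80.0%).

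None of 11 partners of the RGK proteins (calcium channel beta subunits, calmodulins, ROCK kinases and Gem-binding proteins) was at least 2-fold from the control at 1, 4 or 8 h. The median log2 fold change of these partners was 0.08, 0.09 and 0.06, and 0 were called by edgeR, with 0, 1 and 0 at an unadjusted p under 0.05.

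Rasd1 (ENSMUSG00000049892.7, chr11:59963181-59964944, minus strand), the dexamethasone-inducible Ras protein that acts on nitric oxide and G protein signalling, lay on both sides of the control. It stood at 16.3 normalized CPM in the control (325 counts), 27.9 at 1 h, 33.9 and 36.0 in 4 h libraries 1 and 2, and 7.30 at 8 h. All 3 libraries up to 4 h were above the control, the 4 h libraries lay together, and the 8 h library was the lowest of the 5. Relative to the control, Rasd1 stood at 1.71 for 1 h (1.48 to 1.97), 2.08 (1.81 to 2.39) and 2.21 (1.93 to 2.52) for the 4 h libraries, and 0.447 for 8 h (0.362 to 0.550). Its log2 fold change was 1.09 for 4 h (SE 0.23, edgeR adjusted p = 0.276) and -1.15 for 8 h (SE 0.27, edgeR adjusted p = 0.882). Between 8 h and 4 h it was -2.24 (SE 0.25, edgeR adjusted p = 0.366), in a comparison in which edgeR called 0% of all genes tested, with 1726 genes at an unadjusted p under 0.05, and DESeq2 called 132 and limma-voom 0. Rasd1 itself was called in this comparison by DESeq2, with library size alone and with no filter, and its adjusted p over the 6 alternatives, which were chosen after seeing the data, ranged from 2.63e-10 to 0.542. With no filter 6 of the 10 members were called there, against 2.92% of the 32732 genes of that setting.

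Rasd2 (ENSMUSG00000034472.13, chr8:75213944-75224113, plus strand), known as Rhes and most abundant in striatum, lay on the other side of the control. Its level was 39.1 normalized CPM in the control (778 counts), 36.9 at 1 h, 25.1 and 28.8 in 4 h libraries 1 and 2, and 32.0 at 8 h. Every kainic acid library was below the control, the 1 h library within counting error of it, and the 4 h libraries were the lowest. The ratio was 0.641 (0.568 to 0.723) and 0.737 (0.660 to 0.824) at 4 h, short of 2-fold, with a log2 fold change of -0.53 (SE 0.21, edgeR adjusted p = 0.429). The summed level of 8 markers of striatal neurons, led by Pde10a, was 164, 170, 235, 212 and 164 normalized CPM in the 5 libraries. Pde10a alone made up 102 of it in the control and 170 and 127 in 4 h libraries 1 and 2, and other markers differed from it, with Drd1 at 2.77 and 2.08 times the control in the 4 h libraries, Ppp1r1b at 0.518 and 1.25 and Gpr6 at 0.909 and 0.607. Whether a share of striatal tissue has a part in the level of Rasd2 was not tested. None of 7 partners of the Rasd proteins, among them Nos1 and the inhibitory G protein subunits, was at least 2-fold from the control at any time, and their median log2 fold change was -0.04, 0.04 and -0.17 at 1, 4 and 8 h.

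Rheb (ENSMUSG00000028945.9, chr5:24802823-24842624, minus strand) had the most counts of the 10 genes. Its level was 72.2 normalized CPM in the control (1436 counts), 219 at 1 h, 309 and 180 in 4 h libraries 1 and 2, and 106 at 8 h. All kainic acid libraries were above the control, with 4 h library 1 the highest, and the 1 h library lay between the 4 h libraries. Rheb exceeded the control 3.03-fold at 1 h (2.86 to 3.23), 4.29-fold (4.04 to 4.55) and 2.499-fold (2.35 to 2.66) in the 4 h libraries, and 1.48-fold at 8 h (1.38 to 1.58). In the fit its log2 fold change was 1.60 for 1 h (SE 0.39, edgeR adjusted p = 1) and 1.76 for 4 h (SE 0.36, edgeR adjusted p = 0.270). A small RNA gene in an intron of Rheb, Gm25363, shares no exon base with it and had 3 counts in the control, 59 at 1 h, 19 and 10 in 4 h libraries 1 and 2, and 8 at 8 h.

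At 1 h and in each 4 h library the genes around Rheb in its pathway lay closer to the control than Rheb did, but at 8 h not all of them did. Of 16 genes of the mTORC1 pathway, among them Tsc1, Tsc2, Mtor and Rptor, 0 were at least 2-fold from the control at 1 h or 8 h, and 1 (6.25%) was at least 2-fold higher in both libraries at 4 h, against 4.96% of all genes tested. In 4 h library 1 alone 1 was at least 2-fold lower, Rhebl1, a relative of Rheb, at 0.363 times the control against 0.912 in library 2. The higher gene was Eif4ebp1, a repressor of translation that mTORC1 inactivates, at 1.21 normalized CPM in the control, 3.15 and 2.86 in 4 h libraries 1 and 2, and 1.83 at 8 h (log2 fold change at 4 h 1.24, SE 0.49, edgeR adjusted p = 0.415). The median log2 fold change of the list was -0.04, -0.22 and -0.04 at 1, 4 and 8 h.

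Rnd3 (ENSMUSG00000017144.8, chr2:51130438-51149111, minus strand) was high at 4 h. It stood at 14.9 normalized CPM in the control (296 counts), 22.2 at 1 h, 143 and 39.5 in 4 h libraries 1 and 2, and 13.7 at 8 h. Both 4 h libraries lay above all others but were far from each other, and the 8 h library lay within counting error of the control, with a ratio of 0.924 (0.777 to 1.10). The ratio was 1.49 at 1 h (1.28 to 1.74), 9.58 (8.49 to 10.9) in 4 h library 1 and 2.65 (2.32 to 3.05) in 4 h library 2. For both 4 h libraries together the log2 fold change was 2.60 (SE 0.80, edgeR adjusted p = 0.358), and it was 3.25 or 1.40 from library 1 or library 2 alone. Between 4 h and 1 h it was 2.03 (SE 0.77, edgeR adjusted p = 0.614), in a comparison in which edgeR called 0.00506% of genes tested, again ETV3L alone. Over the same 6 alternatives the adjusted p of Rnd3 ranged from 9.499e-12, with no filter, to 1, and no other alternative called it. From library 1 alone the log2 fold change was 2.68, and from library 2 alone 0.83, short of 2-fold.

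Of 12 other genes of the RhoA and Rnd family and its regulators, 1 (8.33%) was at least 2-fold higher at both 4 h and 8 h, against 4.96% and 6.79% of all genes tested, and 0 were at 1 h. In 4 h library 1 alone Rhoq was also past 2-fold, at 2.13 times the control against 1.92 in library 2. Rhoj, a relative of Cdc42, stood at 2.41 normalized CPM in the control, 3.81 at 1 h, 16.5 and 9.995 in 4 h libraries 1 and 2, and 7.82 at 8 h (log2 fold change at 4 h 2.40, SE 0.46, edgeR adjusted p = 0.259). The median of the list was 0.06, 0.37 and 0.01 on the log2 scale for 1, 4 and 8 h. Rhoj lay above the control in each kainic acid library, as Gem did, whereas Rnd3 was back near it at 8 h.

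Rasl11a (ENSMUSG00000029641.8, chr5:146845071-146847726, plus strand), a Ras-like protein with reported effects on ribosomal RNA transcription, was high at 1 h and in 1 of the 4 h libraries. Its level was 5.88 normalized CPM in the control (117 counts), 49.1 at 1 h, 52.9 and 13.1 in 4 h libraries 1 and 2, and 4.11 at 8 h. The 1 h library and 4 h library 1 lay together, 4 h library 2 lay far below them, and the 8 h library was the lowest. Set against the control, Rasl11a was at a ratio of 8.35 for 1 h (6.88 to 10.2), 8.99 (7.41 to 11.0) and 2.22 (1.78 to 2.79) for the 4 h libraries, and 0.699 for 8 h (0.514 to 0.945). Its fitted log2 fold change was 3.04 for 1 h (SE 0.95, edgeR adjusted p = 1) and 2.46 for 4 h (SE 0.87, edgeR adjusted p = 0.398), the latter being 3.14 or 1.14 from library 1 or library 2 alone.

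Rasl11b (ENSMUSG00000049907.8, chr5:74195286-74199481, plus strand), its relative, showed a smaller difference. It stood at 26.2 normalized CPM in the control (521 counts), 51.2 at 1 h, 31.8 and 35.1 in 4 h libraries 1 and 2, and 22.9 at 8 h. The 1 h library was the highest, the 4 h libraries lay together above the control, and the 8 h library was the lowest. The ratio was 1.96 at 1 h (1.75 to 2.18), just short of 2-fold, 1.22 and 1.34 at 4 h, and 0.874 at 8 h (0.765 to 0.997), with a log2 fold change at 1 h of 0.97 (SE 0.24, edgeR adjusted p = 1).

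Per kb of exon length, the order in the control was Rasd2 (12.3 normalized CPM per kb), Rasl11b (12.1), Rasd1 (10.1), Rheb (9.34), Rasl11a (4.89), Rem2 (4.80), Rnd3 (3.36), Gem (0.621), Rrad (0.478) and Rem1 (0.280). The counting interval of the ratio of neighbours lay above equal levels from Rasl11b to Rasd1 (1.04 to 1.38), from Rheb to Rasl11a (1.58 to 2.33), from Rem2 to Rnd3 (1.19 to 1.71) and from Rnd3 to Gem (3.62 to 8.41), and it included equal levels for the other 5 steps. The level of Rheb was taken over the 7721 merged exon bases of its 4 transcripts, which may include retained introns. In 4 h library 1 the order was led by Rasl11a (44.0 normalized CPM per kb), Rheb (40.1) and Rnd3 (32.2). In 4 h library 2 it was led by Rheb (23.4), Rasd1 (22.4) and Rasl11b (16.2), with Rasl11a at 10.9 and Rnd3 at 8.90.

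Between the 4 h libraries, 4 of the 10 genes were at least 2-fold higher in library 1, against 7.23% of all genes tested, and 1 in library 2, against 4.84%. The ratio of library 1 to library 2 was 3.39 for Gem (2.76 to 4.18), 3.03 for Rrad (2.28 to 4.05), 3.61 for Rnd3 (3.33 to 3.93) and 4.05 for Rasl11a (3.51 to 4.68). It was 1.72 for Rheb (1.64 to 1.79). The gene higher in library 2 was Rem1, on 1 and 9 counts, with a ratio of library 1 to library 2 of 0.1248 (0.00285 to 0.901). For Rem2, Rasd1, Rasd2 and Rasl11b it lay between 0.841 and 0.942, and the interval of Rasd1 (0.841 to 1.05) and that of Rasl11b (0.809 to 1.02) included equal levels. The genes that differed least between these libraries thus had the smaller SE at 4 h, 0.26 for Rem2 against 0.87 for Gem. Among the immediate early genes, Fos stood at 519 and 70.4 normalized CPM in 4 h libraries 1 and 2, against 10.8 in the control and 999 at 1 h, and Npas4 at 130 and 4.92, against 3.92 in the control and 694 at 1 h.

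Of the 10 immediate early genes, 10 were at least 2-fold higher at 1 h, 3 in both libraries at 4 h and 1 at 8 h, against 5.41%, 4.96% and 6.79% of all genes tested. At 8 h 1 (Egr2) was at least 2-fold lower, against 3.41% of all genes tested, at 1.20 normalized CPM against 2.41 in the control. Fosb, which had the largest log2 fold change of the list at 1 h after Npas4 (6.68 against 7.43), stood at 3.52 normalized CPM in the control, 372 in the 1 h library, 238 and 60.2 in 4 h libraries 1 and 2, and 9.75 in the 8 h library. The 2 libraries differed in this, as 10 immediate early genes were at least 2-fold higher than the control in 4 h library 1 and 3 in library 2, while 7 of the GTPase genes were in each, against 11.9% of all genes tested in library 1 and 6.59% in library 2. These counts for each library were added after seeing the data. Of 24 other Ras family genes, 23 were tested and 0 were 2-fold from the control at 1 h or, in both libraries, at 4 h. Of all genes tested, 5.41% were at least 2-fold higher at 1 h and 4.96% at 4 h, and 3.85% and 1.51% lower. In 4 h library 1 alone, 3 of these Ras family genes (13.0%) were at least 2-fold higher, against 11.9% of all genes tested, namely Rras2, Rap1b and Rasl12. In the same library 1 of them (4.35%) was at least 2-fold lower, against 6.83%, namely Rasl10a. In 4 h library 2 alone none was, against 6.59% and 3.74%. At 8 h 1 of them (4.35%) was at least 2-fold higher, Rasl10a, against 6.79% of all genes tested. At that time 0 were at least 2-fold lower, against 3.41%. Rasl10a stood at 19.9 normalized CPM in the control, 12.1 at 1 h, 9.74 and 19.7 in 4 h libraries 1 and 2, and 54.9 at 8 h (log2 fold change at 8 h 1.46, SE 0.50, edgeR adjusted p = 1).

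**Figure D4:**
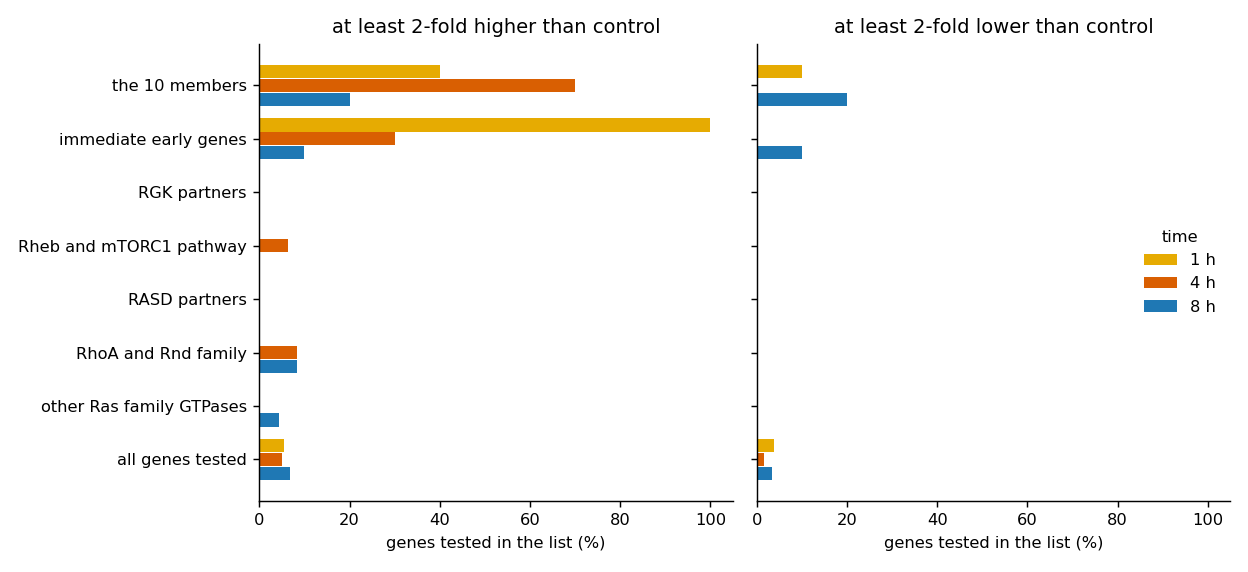
Share of the genes tested in each list (horizontal axis, percent) that were at least 2-fold higher (left) or lower (right) than the control at 1, 4 and 8 h, at 4 h in both libraries. The 10 GTPase genes reach 70.0% at 4 h, the immediate early genes their full number at 1 h, and all genes tested 4.96% and 5.41%.

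The genes most like a member were found as those at the smallest Euclidean distance over the log2 ratios of the 4 kainic acid libraries to the control, among 16220 genes with a mean of at least 1 normalized CPM. Nearest to Gem were Gadd45g (distance 0.53), Mir132 (0.75) and Arl4d (0.90). Nearest to Rem2 were Ret (0.25), Gm7908 (0.28) and Gm12749 (0.35), and to Rrad 5430434F05Rik (0.65), Scg2 (0.70) and Gpr3 (0.75). Gadd45g lay near Gem in each library, with log2 ratios of 4.44, 3.63, 1.99 and 1.01 in the order 1 h, 4 h library 1, 4 h library 2 and 8 h, beside 4.32, 3.98, 2.23 and 1.30 for Gem. Near Rasd1 were Gm8738 (0.40) and Col22a1 (0.73). Rheb was nearest to Gm44044 (0.26), Mcl1 (0.33) and Gm10997 (0.35). Mcl1, a gene of cell survival at a mean of 126 normalized CPM, had log2 ratios of 1.60, 1.83, 1.14 and 0.63, against 1.60, 2.10, 1.32 and 0.56 for Rheb. Rnd3 was nearest to Gm2237 (0.40), Prkcd (0.62) and Magoh (0.65), and Rasl11a to Thbs1 (0.70), Trib1 (0.85) and Tiparp (0.88). These distances describe 4 ratios that share 1 control library. Several of the genes named were scarce, so their ratios also rest on few counts. The mean was 1.34 normalized CPM for Gm44044, 1.42 for Gm8738, 1.64 for Gm7908, 1.69 for Gm10997 and 1.90 for Gm12749, near the limit of 1. It was 2.31 for Mir132, 2.41 for Gm2237 and 2.44 for Col22a1. No genes are given for Rem1, as its ratios rest on few counts and on the filter.

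Promoter sequences, 250 bases before to 50 bases after the RefSeq start (GRCm38.p6), were matched by symbol for 7 of the 10 genes, all but Gem, Rrad and Rasd1. The motifs searched on both strands were the CRE half-site (TGACG), the full CRE (the half-site followed by TCA, so that it overlaps the half-site), the AP-1 site (TGACTCA or TGAGTCA) and the CArG box. These are bound by CREB, AP-1 and serum response factor, which are known to act on activity-regulated genes. The half-site was found in Rem1, Rheb and Rasl11a, and the CArG box in Rnd3. Neither the full CRE nor the AP-1 site was found in any of the 7. Among 32851 promoter windows of the same length, 20.8% held the half-site, 1.79% the full CRE, 5.202% the AP-1 site and 1.63% the CArG box. The windows of Rheb (chr5:24842312-24842611, minus strand), Rasl11a (chr5:146844821-146845120, plus strand) and Rnd3 (chr2:51149062-51149361, minus strand) are printed because these genes were at least 2-fold higher in both 4 h libraries and hold a match, which is in capitals.
Rheb: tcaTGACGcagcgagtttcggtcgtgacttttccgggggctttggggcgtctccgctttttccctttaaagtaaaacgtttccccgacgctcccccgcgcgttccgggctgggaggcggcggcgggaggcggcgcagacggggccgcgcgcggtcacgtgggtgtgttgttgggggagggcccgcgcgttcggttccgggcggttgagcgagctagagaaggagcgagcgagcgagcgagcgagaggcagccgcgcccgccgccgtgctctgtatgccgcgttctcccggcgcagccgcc
Rasl11a: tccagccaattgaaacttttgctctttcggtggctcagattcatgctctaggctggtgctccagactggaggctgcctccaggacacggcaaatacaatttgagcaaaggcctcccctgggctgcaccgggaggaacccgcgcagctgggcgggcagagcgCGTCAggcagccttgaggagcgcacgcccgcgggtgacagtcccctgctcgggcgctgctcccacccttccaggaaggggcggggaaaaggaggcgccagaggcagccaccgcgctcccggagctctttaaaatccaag
Rnd3: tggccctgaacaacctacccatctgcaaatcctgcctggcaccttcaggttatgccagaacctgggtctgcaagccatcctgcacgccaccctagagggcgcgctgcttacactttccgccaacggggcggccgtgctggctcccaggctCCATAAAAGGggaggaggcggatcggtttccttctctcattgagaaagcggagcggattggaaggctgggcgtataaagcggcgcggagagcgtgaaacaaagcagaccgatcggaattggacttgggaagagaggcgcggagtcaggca
The match lay 247 bases before the RefSeq start in Rheb, 89 in Rasl11a and 100 in Rnd3. The starts of the 2 annotations differ for Rheb. Its GENCODE span reaches position 24842624, so the whole Rheb window and its match lie inside that span. A match describes letters in these windows and is not evidence of binding.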

How the data were processed

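The authors prepared stranded TruSeq libraries from total hippocampal RNA, sequenced them from paired ends and deposited the reads per gene as whole-number counts, not normalized, for 55385 genes. The submitters' processing notes name STAR 2.5.1b, HTSeq and the build GRCm38.p4. Not given in the sources used here are the HTSeq version, its strand setting and counting mode, and the release of the annotation. Summary lines were left out, of which reads on no gene made up 24.7%, 29.0%, 33.1%, 25.3% and 30.9% of the control, 1 h, 4 h library 1, 4 h library 2 and 8 h.

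Of the identifiers, 55144 were found in GENCODE M21, which gave positions and exon lengths. The analysis used edgeR 4.0.16 under R 4.3.3 (filterByExpr, TMM, quasi-likelihood test). All 5 libraries were fitted as 4 groups, with 1 residual degree of freedom and a common dispersion of 0.0565. Log2 fold changes used a prior count of 2, and the threshold was an adjusted p of 0.05. The fold rule asked for a 2-fold difference from the control, at 4 h in both libraries. The script was tested on simulated data. As alternatives, library size alone, median-of-ratios factors, no filter, at least 10 counts in every library, DESeq2 1.42.0, limma-voom (limma 3.58.1), a prior count of 0.125, a 1.5-fold rule and leaving out each 4 h library were run. Plots came from matplotlib 3.10.9 in Python 3.11.15. A count of 3 was the floor.

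Named genes were the 10 members, up to 2 genes highest and up to 2 lowest against the control, past 2-fold, from each pathway list, and the 3 genes most like each member that was 2-fold from the control in any library, of which 1 near Rasd1 and the 3 near Rem1 are not reported here. Fos, ETV3L, Dsp, C1ql2, Rras2, Rap1b, Rasl12, Drd1, Ppp1r1b, Gpr6, Gfap, Gja1, P2ry12, Prox1, Rhebl1 and Rhoq were named after their values were seen. The members and lists were chosen with earlier results of these data known.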

Additional observations from a re-analysis of the deposited data

Results flagged for a closer look

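For 4 genes every library of an earlier time lay above the control and the 8 h library below it. The 4 were picked for this pattern, so each had to be lower at 8 h than at 4 h. The share of all genes with this pattern is not given. The log2 fold change of 8 h against 4 h was -2.24 for Rasd1, -2.72 for Rnd3, -2.97 for Rasl11a and -0.55 for Rasl11b, with edgeR adjusted p-values of 0.366, 0.507, 0.513 and 0.570, none past the threshold. Alternatives, chosen for this comparison after seeing the data, gave other calls. Rasd1 was called by DESeq2 (adjusted p = 4.83e-05), with edgeR and library size alone (adjusted p = 0.0179) and with edgeR and no filter (adjusted p = 2.63e-10), in a range over 6 alternatives from 2.63e-10 to 0.542. With edgeR and no filter alone, Rnd3 was called at an adjusted p of 5.98e-20, in a range up to 0.623, and Rasl11a at an adjusted p of 1.20e-16, in a range up to 0.657. Rasl11b was called under none of the 6, with adjusted p-values from 0.475 to 1. The setting with no filter called 6 of the 10 members in this comparison, against 2.92% of its 32732 genes, among them Rasd1, Rnd3 and Rasl11a. The others were Gem (adjusted p = 5.65e-06, in a range up to 0.674), Rrad (adjusted p = 0.000149, up to 0.642 over 5 alternatives) and Rheb (adjusted p = 8.83e-07, up to 0.593). The size for Rnd3 and Rasl11a depended on the 4 h library, at -3.36 and -3.65 from library 1 alone and -1.51 and -1.64 from library 2 alone, while Rasd1 (-2.20 and -2.29) and Rasl11b (-0.47 and -0.61) were close. The log2 fold change at 8 h minus that at 1 h was -1.92 for Rasd1, -0.69 for Rnd3, -3.54 for Rasl11a and -1.16 for Rasl11b, and this difference was not tested. The counting interval of the 8 h ratio to the control included equal levels for Rnd3 (0.777 to 1.10), so its place below the control was within counting error.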

How the results depend on the processing

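The number of genes called depended on the setting, and the cause was not tested. At 1 h edgeR called 0 genes, against 57 with library size alone, 285 with no filter, 1 with at least 10 counts in every library and 49 with DESeq2. At 4 h it called 1, against 237 with library size alone, 1300 with no filter, 233 with DESeq2 and 0 with median-of-ratios factors, at least 10 counts in every library or limma-voom. At 8 h it called 0, against 22 with library size alone, 279 with no filter and 32 with DESeq2. For 4 h against 1 h it called 1, against 67, 725 and 103 under these settings and 0 with median-of-ratios factors, at least 10 counts or limma-voom. For 8 h against 4 h it called 0, against 120, 957 and 132. Library size alone moved the median log2 fold change of all genes by -0.12 at 4 h and 0.14 for 8 h against 4 h.

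Against the control, no member changed direction under any of the alternatives run. Of 30 member results against the control, none passed the threshold in the main setting, and 19 of 174 alternative values with an adjusted p of their own did, 10 with no filter, 6 with DESeq2 and 3 with library size alone. Gem was called at 1 h and 4 h under all 3 of these, and its adjusted p-values over 6 alternatives ranged between 3.66e-19 and 1 at 1 h and between 1.27e-13 and 0.448 at 4 h. Rheb at 4 h was called under the same 3, with adjusted p-values from 5.45e-14 to 0.337. For 8 h against 4 h and 4 h against 1 h, alternatives for 8 member results were added after seeing the data. At 8 h against 4 h Rasd1 was called with DESeq2, library size alone and no filter (adjusted p from 2.63e-10 to 0.542 over the 6), and with no filter so were Rnd3 (5.98e-20 to 0.623), Rasl11a (1.20e-16 to 0.657), Gem (5.65e-06 to 0.674), Rrad (0.000149 to 0.642 over 5) and Rheb (8.83e-07 to 0.593), as was Rnd3 at 4 h against 1 h (9.499e-12 to 1). Each 4 h library alone gave the same direction for all 8 but not the same size, with Rnd3 at 8 h against 4 h at -1.51 without library 1 and -3.36 without library 2, Rasl11a at -1.64 and -3.65, Gem at -0.94 and -2.68, Rrad at -1.59 and -3.16, Rheb at -0.76 and -1.54, and Rnd3 at 4 h against 1 h at 0.83 and 2.68. DESeq2 gave no adjusted p for Rem1, which the filter of 10 counts removed. Without 1 of the 4 h libraries, the number of members at least 2-fold lower at 4 h was 0 to 1, the 1 being Rem1, and that of members at least 2-fold higher was 7. With library size alone Rasd1 was no longer among these. Under the 1.5-fold rule 6 members were higher at 1 h, with Rasd1 and Rasl11b added, 7 at 4 h, and 3 at 8 h, with Rrad added. This rule left the numbers of members lower unchanged, and the share of all genes under it is not given. No paired analysis was possible because only the 4 h group had more than 1 library. Genes with few counts, such as Rem1, are limited by depth.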

Other observations

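For the cell types whose sums are given here, the sums varied less between libraries than that for choroid plexus, though single markers could differ. In the control, at 1 h, in 4 h libraries 1 and 2 and at 8 h, 6 pan-neuronal markers, led by Snap25, summed to 3869, 4069, 4122, 3737 and 3437 normalized CPM. The sums were 3732, 3921, 4701, 4309 and 4095 for 6 astrocyte markers, led by Slc1a2. Among these, Gfap stood at 221 normalized CPM in the control and 2.70 and 2.31 times that level in 4 h libraries 1 and 2 and 2.66 times at 8 h, and Gja1 at 0.507 times its control level at 8 h. The microglial marker P2ry12 stood at 0.436 and 0.558 times its control level in 4 h libraries 1 and 2, and the sum of its list is not given. For 5 oligodendrocyte markers, led by Mbp, they were 3104, 3875, 3667, 4724 and 3112. Markers of endothelial cells, led by Flt1, summed to 94.6, 95.1, 145, 84.7 and 108, and those of mural cells, led by Rgs5, to 136, 133, 127, 139 and 117. Markers of blood leukocytes, led by Lyz2, stayed between 7.49 and 10.4, and those of striated muscle, led by Acta1, between 4.28 and 8.67, with 4 of 5 muscle markers at 0 counts in at least 1 library. Whether any of these lists has a part in the levels of the GTPase genes was not tested.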
